A study of Mus musculus with 75 samples.

Results

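The 10 genes *Marco*, *Siglecf*, *Fabp1*, *Ear1*, *Ear2*, *Pparg*, *Krt79*, *Cidec*, *Plet1* and *Atp6v0d2*, which are used as markers of resident alveolar macrophages, were followed in the lungs of bleomycin (BLEO) treated mice. They were chosen by gene symbol among the 55536 genes of the count table, and all 10 were among the 16221 genes tested. RNA was sequenced from the right inferior lung lobe of 75 male C57BL/6JRj mice, with 1 library per mouse. The stated age of 12 to 14 weeks is that at BLEO instillation, so BLEO-IPF mice of later days were older when the lung was taken. The BLEO-IPF mice were given BLEO once, by intratracheal instillation, and were terminated on day 7 (10 mice), on days 14, 21, 28 and 35 (12 mice each) and on day 42 (7 mice), and 10 mice served as controls (CTRL). The sample titles describe the CTRL mice as given saline, whereas the treatment protocol describes them as untreated. Only BLEO-IPF mice that had lost 5% to 17% of body weight by day 6 had been randomized, so the BLEO groups represent mice with mild to moderate weight loss. The lungs were rinsed with saline to collect lavage fluid before the lobes were taken, which removes part of the free cells of the airspaces. Libraries held 9240291 to 14665247 counts, and levels are given as CPM, counts scaled to a common library size with TMM factors.

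Alveolar macrophages live on the inner surface of the alveoli, where they clear particles, microbes and spent surfactant. They settle in the lung around birth under GM-CSF, which induces the nuclear receptor PPAR-gamma, together with TGF-beta signals, and their lipid handling depends on this axis. After injury of the alveolar epithelium, monocytes enter the lung and can become macrophages that gradually take up part of the resident program. In whole lung, fewer cells of a type and less RNA per cell cannot be told apart.

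The markers did not move as one group. On day 14, *Fabp1*, *Krt79*, *Ear1* and *Cidec* were 5.37-fold to 15.2-fold lower than in CTRL, whereas *Atp6v0d2* and *Marco* were 3.06-fold and 3.09-fold higher. *Pparg*, *Ear2* and *Plet1* were higher than in CTRL by less than 2-fold from day 21 through day 42, and *Siglecf* was higher on day 21 only among the 6 days tested. *Ear1* and *Ear2*, which are near-identical neighbours on chromosome 14, thus went separate ways. Positions of the genes below are those of GRCm38 in the Ensembl 96 annotation.

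The sequences upstream of *Ear1* and *Ear2* are shown because this pair carries the sharpest contrast. Each line gives the 250 bases before the annotated gene start (RefSeq, build GRCm38.p6), 5′ to 3′ on the strand of the gene. Capitals mark the bases that differ between the genes or stand opposite no base in a global alignment. The *Ear1* window is chr14:43819640-43819889 on the minus strand, and the *Ear2* window is chr14:44102404-44102653 on the plus strand. The Ensembl gene model of *Ear1* (chr14:43818765-43875517) extends further upstream, so the RefSeq window lies within it.
Ear1: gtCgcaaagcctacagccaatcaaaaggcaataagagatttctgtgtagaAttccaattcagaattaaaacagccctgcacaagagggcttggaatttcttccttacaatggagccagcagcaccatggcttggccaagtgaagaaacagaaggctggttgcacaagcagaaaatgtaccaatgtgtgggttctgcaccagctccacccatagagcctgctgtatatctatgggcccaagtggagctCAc
Ear2: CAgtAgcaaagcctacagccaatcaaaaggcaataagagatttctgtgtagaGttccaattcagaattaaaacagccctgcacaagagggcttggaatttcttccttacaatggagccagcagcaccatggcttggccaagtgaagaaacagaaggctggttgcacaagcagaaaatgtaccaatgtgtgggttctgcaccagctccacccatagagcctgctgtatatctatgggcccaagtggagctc
The windows were identical at 246 of 250 bases, with 2 mismatches and 2 unpaired bases in each window. The transcripts are also alike. Of the distinct 75-base stretches of *Ear1* transcripts, 75 bases being the read length, 39.3% also occur in transcripts of other genes (*Ear2*, *Ear10* and the pseudogenes Ear-ps2 and Ear-ps9), and of those of *Ear2* 23.4% are shared in this way. The handling of reads that map to several places is not given in the sources used here, so the counts of these genes are uncertain to that extent. For each of the other 8 members 0 stretches were shared.

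The other windows differed in their motifs. The windows of *Fabp1* (chr6:71199629-71199878, plus strand), *Plet1* (chr9:50494275-50494524, plus strand) and the second listed start of *Cidec* (chr6:113434765-113435014, minus strand) are shown as examples that hold motifs searched, which are given in capitals. Not shown is 1 *Pparg* window that holds the letters of a TATA box on the strand opposite to the gene.
Fabp1: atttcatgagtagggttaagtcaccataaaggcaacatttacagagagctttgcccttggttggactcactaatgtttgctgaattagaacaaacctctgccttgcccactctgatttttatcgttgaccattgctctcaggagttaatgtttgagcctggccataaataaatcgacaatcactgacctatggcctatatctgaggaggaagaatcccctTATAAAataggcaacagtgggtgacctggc
Plet1: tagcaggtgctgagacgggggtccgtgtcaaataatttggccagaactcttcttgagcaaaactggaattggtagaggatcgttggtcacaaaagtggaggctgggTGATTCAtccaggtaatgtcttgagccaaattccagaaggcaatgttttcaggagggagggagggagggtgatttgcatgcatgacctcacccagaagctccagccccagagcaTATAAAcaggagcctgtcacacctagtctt
Cidec: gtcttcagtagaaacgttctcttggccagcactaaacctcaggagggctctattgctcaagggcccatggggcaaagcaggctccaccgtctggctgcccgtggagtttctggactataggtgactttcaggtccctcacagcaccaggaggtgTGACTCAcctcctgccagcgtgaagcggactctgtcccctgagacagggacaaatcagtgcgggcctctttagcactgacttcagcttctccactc
The Ensembl gene model of *Fabp1* starts at chr6:71199827, so the end of the *Fabp1* window, with the TATA box, lies within that model. The *Cidec* window shown lies within the Ensembl model of *Cidec* (chr6:113424634-113435760). Motifs were searched on both strands, and no matches overlapped. The TATA box (TATAAA) was found in the windows of *Fabp1* and *Plet1*, on the strand of the gene. In 1 of 3 windows of *Pparg* it was found on the opposite strand only. On either strand it is present in 12.4% of all 32851 windows of this length. The AP-1 motif (TGANTCA) was found in the windows of *Plet1* and *Cidec*, and is present in 6.75% of all windows. A PU.1-type motif (GAGGAAGT, 2.44% of all windows) and a direct repeat of the PPAR half-site with 1 base between the copies (0.0335% of all windows) were not found in these letters in any window of the 9 members listed.

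In CTRL lungs, the markers were expressed over a wide range. Per kb of exon, *Ear2* had the highest mean level at 43.8 CPM, followed by *Plet1* at 20.9 CPM, *Ear1* at 17.0 CPM and *Atp6v0d2* at 11.6 CPM. The other 6 lay between 3.47 CPM per kb (*Siglecf*) and 6.98 CPM per kb (*Fabp1*). On day 14, *Ear2* was again highest at 52.9 CPM per kb with *Atp6v0d2* second at 35.6 CPM per kb, and *Krt79* at 0.360 and *Fabp1* at 0.412 CPM per kb were lowest.

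The label was checked with 15 other genes of alveolar macrophages and with 8 genes common to macrophages. The alveolar macrophage genes summed to 1102 to 1711 CPM in CTRL and to 1835 to 3993 CPM on day 14, so these ranges did not overlap. Of 14 tested, 9 were higher on day 14 and 2 (*Car4* and *Kcnip4*) lower, with a median log2FC of 1.40, and on day 42 10 were higher, with a median of 1.31. Both medians lie above those over all genes, 0.01 on each day. Among all genes, 32.4% were higher and 29.9% lower on day 14, and 13.7% were higher on day 42. *Ear6*, *Ctsk* and *F7* differed most on day 14 (log2FC 3.35 ± 0.72, 2.49 ± 0.27 and 1.95 ± 0.24). *Ear6* was low in CTRL. The 5 Ear family genes summed to a median of 43.7 CPM there, nearly all of it *Ear1* and *Ear2* (medians 11.5 and 32.1 CPM). *Ear10* had a mean of at most 0.0296 CPM in each group. The macrophage genes summed to 5373 to 6641 CPM in CTRL and to 4088 to 9172 CPM on day 14, and 5 of 8 were higher on that day, led by *Fcgr1* (log2FC 3.05), *Cd68* (2.21) and *Adgre1* (1.95). The 4 markers that were lower on day 14 therefore went against most other genes used for the same cell. As lung tissue, all libraries held alveolar type 2, club and ciliated cell genes. On day 14, 6 of 8, 3 of 4 and 4 of 4 of these were lower than in CTRL, against 29.9% of all genes.

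*Fabp1* (chr6:71199827-71205023, plus strand), which encodes the liver-type fatty acid-binding protein, was the marker with the largest fall on day 14. It ranged from 2.31 to 6.85 CPM in CTRL (median 3.42), from 0.0833 to 1.87 CPM on day 7 (median 0.785) and from 0 to 1.30 CPM on day 14 (median 0.0463). All 10 mice on day 7 and all 12 on day 14 lay below every CTRL mouse, and *Fabp1* had 0 counts in 6 of the 12 libraries on day 14. The counts were few, 26 to 74 per library in CTRL and 0 to 17 on day 14, so single values in BLEO-IPF mice are imprecise. The log2FC against CTRL was -2.02 ± 0.46 (SE, adjusted p = 0.000237, edgeR) on day 7 and -3.93 ± 0.51 (adjusted p = 7.16e-10) on day 14. *Fabp1* was lower on each later day too. On days 28 and 35 the log2FC was -1.82 and -2.14, and at the end, on day 42, it was -1.63 ± 0.51 (adjusted p = 0.0142, edgeR). On day 42, when values ranged from 0.290 to 3.52 CPM (median 0.750), 6 of 7 mice were still below the lowest CTRL mouse. *Fabp1* was nonetheless higher on day 42 than on day 14 (log2FC 2.30 ± 0.58, adjusted p = 0.00137, edgeR).

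*Krt79* (chr15:101929332-101940324, minus strand), a type II keratin, behaved alike. It ranged from 14.0 to 24.6 CPM in CTRL (median 17.7), from 1.33 to 9.00 CPM on day 7 (median 4.60) and from 0.0840 to 5.58 CPM on day 14 (median 1.47). No BLEO-IPF mouse on day 7, 14, 21 or 42 reached the CTRL range, and 1 of 12 mice each on days 28 and 35 did, with 14.4 CPM on either day. Compared to CTRL, the log2FC reached -1.79 ± 0.40 on day 7 (adjusted p = 0.000188) and -3.38 ± 0.41 on day 14 (adjusted p = 1.39e-10, edgeR). It was -2.87, -2.27 and -2.07 for days 21, 28 and 35, and -2.08 ± 0.47 for day 42 (adjusted p = 0.000562, edgeR). Between day 14 and day 42 *Krt79* rose (log2FC 1.30 ± 0.46, adjusted p = 0.0218, edgeR), to a median of 3.67 CPM. For *Fabp1* and *Krt79* the mean of every BLEO group was separated from CTRL by more than the larger SD between mice on the log2 scale, while neighbouring days in the order of levels were not.

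*Ear1* (chr14:43818765-43875517, minus strand), a secreted ribonuclease of the eosinophil-associated family, also fell, but its difference from CTRL did not pass the test from day 28. It ranged from 8.35 to 16.6 CPM in CTRL (median 11.5), from 2.40 to 12.5 CPM on day 7 (median 5.59), from 0.398 to 4.27 CPM on day 14 (median 2.06) and from 2.25 to 9.30 CPM on day 21 (median 5.05). On day 14 the 12 mice lay below all CTRL mice. The fall amounted to a log2FC of -1.02 ± 0.27 by day 7 (adjusted p = 0.00113), -2.46 ± 0.27 by day 14 (adjusted p = 5.13e-12) and -1.34 ± 0.25 by day 21 (adjusted p = 9.86e-06, edgeR). The call on day 7 was lost with replicates 1 to 7 of every group (log2FC -0.80, adjusted p = 0.0672, edgeR). From day 28 the difference no longer passed the threshold. It was -0.53 ± 0.25 and -0.39 ± 0.25 for days 28 and 35, and -0.13 ± 0.28 for day 42 (95% interval -0.69 to 0.43). The range on day 42, 5.73 to 19.6 CPM, covered that of CTRL, and the value exceeded that of day 14 (log2FC 2.33 ± 0.29, adjusted p = 2.22e-08, edgeR).

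*Cidec* (chr6:113424634-113435760, minus strand), a protein of the lipid droplet surface that promotes lipid storage, was also lower on day 14. It ranged from 7.71 to 14.6 CPM in CTRL (median 11.4) and from 0.406 to 5.96 CPM on day 14 (median 1.58), again without overlap (log2FC -2.42 ± 0.68, adjusted p = 0.00153, edgeR), and was lower on day 21 (log2FC -1.62 ± 0.65, adjusted p = 0.0293, edgeR). The call on day 21 was lost without the filter on low counts (log2FC -1.61, adjusted p = 0.0533, edgeR). On days 7 and 28, 2 libraries determined the estimate. In replicate 8 of day 7 *Cidec* reached 89.0 CPM and in replicate 10 of day 28 230 CPM, whereas no other mouse exceeded 14.6 CPM. The adipocyte genes *Adipoq* (66.4 and 196 CPM, at most 3.66 CPM elsewhere), *Plin1* (41.8 and 174 CPM), *Cfd*, *Retn* and *Lep* were high in the same 2 libraries. With all mice the log2FC was 0.19 ± 0.64 on day 7 and 0.99 ± 0.61 on day 28. A fit without the 2 libraries, a choice made after seeing the data, gave -1.30 for day 7 (adjusted p = 0.00744), -1.48 for day 28 (adjusted p = 0.00142), -1.59 for day 35 (adjusted p = 0.000695) and -1.80 for day 42 (adjusted p = 0.00252, edgeR). The latter 2 were -1.60 (adjusted p = 0.0532) and -1.80 (adjusted p = 0.0830, edgeR) with all mice. The calls between days 21 and 28 (log2FC 2.61) and between days 28 and 35 (log2FC -2.59) were both lost without them. Adipocyte genes were also lower than in CTRL on day 21, to which neither of the 2 libraries belongs. *Adipoq* ranged from 0.159 to 3.66 CPM in CTRL and from 0 to 0.898 CPM on day 21. Of the 4 adipocyte genes tested 3 were lower on day 21 and 1, *Plin1*, on day 14 (log2FC -2.33). Among all genes, 25.8% were lower on day 21 and 29.9% on day 14. The part of adipocyte RNA in the fall of *Cidec* was not tested.

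**Figure D1:**
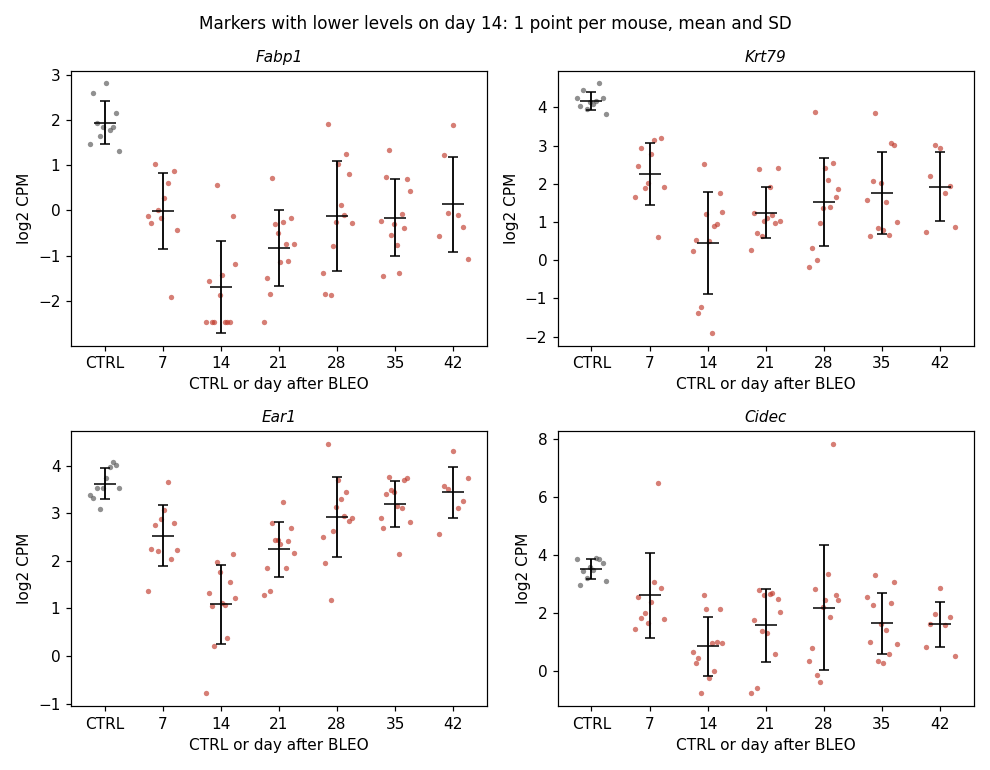
Levels of *Fabp1*, *Krt79*, *Ear1* and *Cidec* in each mouse on the log2 CPM scale (vertical axis) for CTRL (grey) and days 7 to 42 after BLEO (red). Bars show the mean and the SD between mice. All 12 mice on day 14 lie below the 10 CTRL mice for each gene, and the 2 highest *Cidec* points are the libraries with 89.0 and 230 CPM.

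*Atp6v0d2* (chr4:19876841-19922605, minus strand) was the marker with the most uniform rise. It encodes the d2 subunit in the membrane part of the vacuolar proton pump, which acidifies lysosomes, and is known from osteoclasts as well as macrophages. It ranged from 27.3 to 37.4 CPM in CTRL (median 31.6), from 40.2 to 69.6 CPM on day 7 (median 50.98), from 75.6 to 122 CPM on day 14 (median 94.8) and from 81.4 to 153 CPM on day 21 (median 118). All 65 BLEO-IPF mice lay above all CTRL mice. The rise amounted to a log2FC of 0.74 ± 0.21 by day 7 (adjusted p = 0.00310) and 1.61 ± 0.21 by day 14 (adjusted p = 6.64e-10, edgeR). It was 1.90 ± 0.21 for day 21 and 1.84 ± 0.23 for day 42 (adjusted p = 6.07e-09, edgeR). Mice became less alike later on. The SD between mice on the log2 scale was 0.16 in CTRL and 0.18 on day 14, but 0.75 on day 28. On day 42 it was 0.70, and values ranged from 43.6 to 182 CPM. Other osteoclast genes were also higher on day 14. They summed to 12.5 to 22.7 CPM in CTRL and to 54.2 to 108 CPM on day 14. Of 4 tested, 4 were higher on day 14 (*Dcstamp* by 3.27, *Acp5* by 2.24 and *Ocstamp* by 1.87 on the log2 scale) and 2 on day 42. Among all genes, 32.4% were higher on day 14 and 13.7% on day 42. On day 42 compared to day 14, 3 of the 4 osteoclast genes were lower (median log2FC -1.40), against 18.8% of all genes. Between these days *Atp6v0d2* had a log2FC of 0.22 ± 0.22, which did not pass the threshold. The part of osteoclast genes in the rise of *Atp6v0d2* was not tested.

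*Marco* (chr1:120474538-120505024, minus strand), a scavenger receptor for bacteria and inhaled particles, rose early and then spread widely between mice. It ranged from 4.21 to 13.7 CPM in CTRL (median 6.91) and from 21.1 to 43.4 CPM on day 7 (median 30.4), when all 10 mice were above CTRL. On day 21 the range was 6.04 to 102 CPM (median 30.4), and on day 35 it was 0.726 to 28.5 CPM (median 7.19), with 3 of 12 mice below and 1 above all CTRL mice. *Marco* exceeded CTRL by a log2FC of 2.03 ± 0.46 on day 7 (adjusted p = 0.000240) and by 1.63 ± 0.45 on day 14 (adjusted p = 0.00126, edgeR). With replicates 1 to 7 of every group the call on day 14 was lost (log2FC 1.08, adjusted p = 0.0958, edgeR). The value was 2.31 ± 0.45 for day 21 (adjusted p = 1.71e-05) and 1.25 ± 0.45 for day 28 (adjusted p = 0.0190, edgeR). For day 35 it was 0.09 ± 0.46 and for day 42 0.76 ± 0.51 (95% interval -0.23 to 1.75), and neither passed the threshold.

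*Pparg* (chr6:115360951-115490399, plus strand), the transcription factor of the resident program, was not reduced. It ranged from 9.24 to 12.2 CPM in CTRL (median 10.5), from 10.9 to 18.03 CPM on day 14 (median 12.6) and from 12.4 to 20.3 CPM on day 21 (median 17.1), when all 12 mice lay above CTRL. The log2FC against CTRL was 0.05 ± 0.14 on day 7, 0.30 ± 0.13 on day 14 (adjusted p = 0.0474) and 0.63 ± 0.13 on day 21 (adjusted p = 4.94e-05, edgeR). For days 28 and 35 it was 0.78 ± 0.13 and 0.51 ± 0.13, and for day 42 0.59 ± 0.15 (adjusted p = 0.00271, edgeR). The call on day 14 was near the threshold and was lost under several settings, DESeq2 among them (adjusted p = 0.0707). *Pparg* was also high in the 2 libraries with adipocyte genes (203 and 369 counts, each the highest of its group), and without them the log2FC on day 28 was 0.64.

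*Plet1* (chr9:50494525-50505482, plus strand), a membrane protein anchored by a lipid and also found in epithelial progenitors, ranged from 34.7 to 47.3 CPM in CTRL (median 40.4), from 29.4 to 75.2 CPM on day 14 (median 46.1) and from 46.4 to 102 CPM on day 21 (median 69.5). On day 14, 4 of 12 mice were below and 6 above all CTRL mice, whereas on day 35 all 12 were above. The log2FC on days 7 and 14 was 0.34 ± 0.16 and 0.19 ± 0.16, neither past the threshold. It was 0.83 ± 0.16 on day 21 (adjusted p = 8.96e-06, edgeR), 0.66 and 0.72 on days 28 and 35, and 0.85 ± 0.18 on day 42 (adjusted p = 0.000238, edgeR). It was higher on day 21 than on day 14 (log2FC 0.65 ± 0.15, adjusted p = 0.0170, edgeR), a difference not called in the fit of only these 2 groups.

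*Ear2* (chr14:44102654-44103534, plus strand), the neighbour and near copy of *Ear1*, ranged from 24.1 to 37.3 CPM in CTRL (median 32.1), from 16.9 to 35.6 CPM on day 7 (median 26.1), from 26.6 to 64.2 CPM on day 14 (median 37.9) and from 35.0 to 71.99 CPM on day 42 (median 48.8). Most mice were thus above the range of CTRL late in the study, 6 of 7 on day 42. The log2FC for days 7 and 14 was -0.20 ± 0.16 and 0.27 ± 0.15, neither past the threshold. It was 0.49 ± 0.15 for day 21 (adjusted p = 0.00521, edgeR, and 0.0720 with replicates 1 to 7 of every group), 0.50 and 0.59 for days 28 and 35, and 0.70 ± 0.17 for day 42 (adjusted p = 0.00187, edgeR). *Ear2* was higher on day 14 than on day 7 (log2FC 0.48 ± 0.15, adjusted p = 0.0230, edgeR), the interval over which *Ear1* fell (log2FC -1.44 ± 0.28, adjusted p = 0.000195, edgeR).

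*Siglecf* (chr7:43351341-43359531, plus strand), a sialic acid-binding lectin carried by alveolar macrophages and eosinophils, changed least. It ranged from 7.45 to 12.1 CPM in CTRL (median 9.44), from 3.11 to 16.6 CPM on day 14 (median 7.78) and from 7.35 to 21.9 CPM on day 21 (median 13.4). The log2FC was -0.22 ± 0.18 on day 14 (95% interval -0.57 to 0.14), 0.44 ± 0.18 on day 21 (adjusted p = 0.0308, edgeR) and 0.27 ± 0.20 on day 42. It was higher on day 21 than on day 14 (log2FC 0.66 ± 0.17, adjusted p = 0.0386, edgeR), a difference not called in the fit of only these 2 groups. The call on day 21 against CTRL was lost without the filter on low counts (adjusted p = 0.0579) and without the 2 libraries with the liver gene *Alb* (adjusted p = 0.0572, edgeR). This call was also lost with replicates 1 to 7 of every group (adjusted p = 0.111, edgeR). The eosinophil gene *Epx* had a mean of at most 0.0357 CPM in every group, and the eosinophil genes together summed to 1.16 to 4.21 CPM in CTRL and 1.45 to 6.88 CPM on day 14. Of 3 eosinophil genes tested, 1 was lower on day 14 (*Il5ra*, log2FC -1.31), and 2 were higher on day 28. Among all genes, 29.9% were lower on day 14 and 24.1% higher on day 28. On day 28 the summed eosinophil genes had a median of 2.94 CPM and 48.6 CPM in the highest mouse, against at most 9.66 CPM in every other group.

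**Figure D2:**
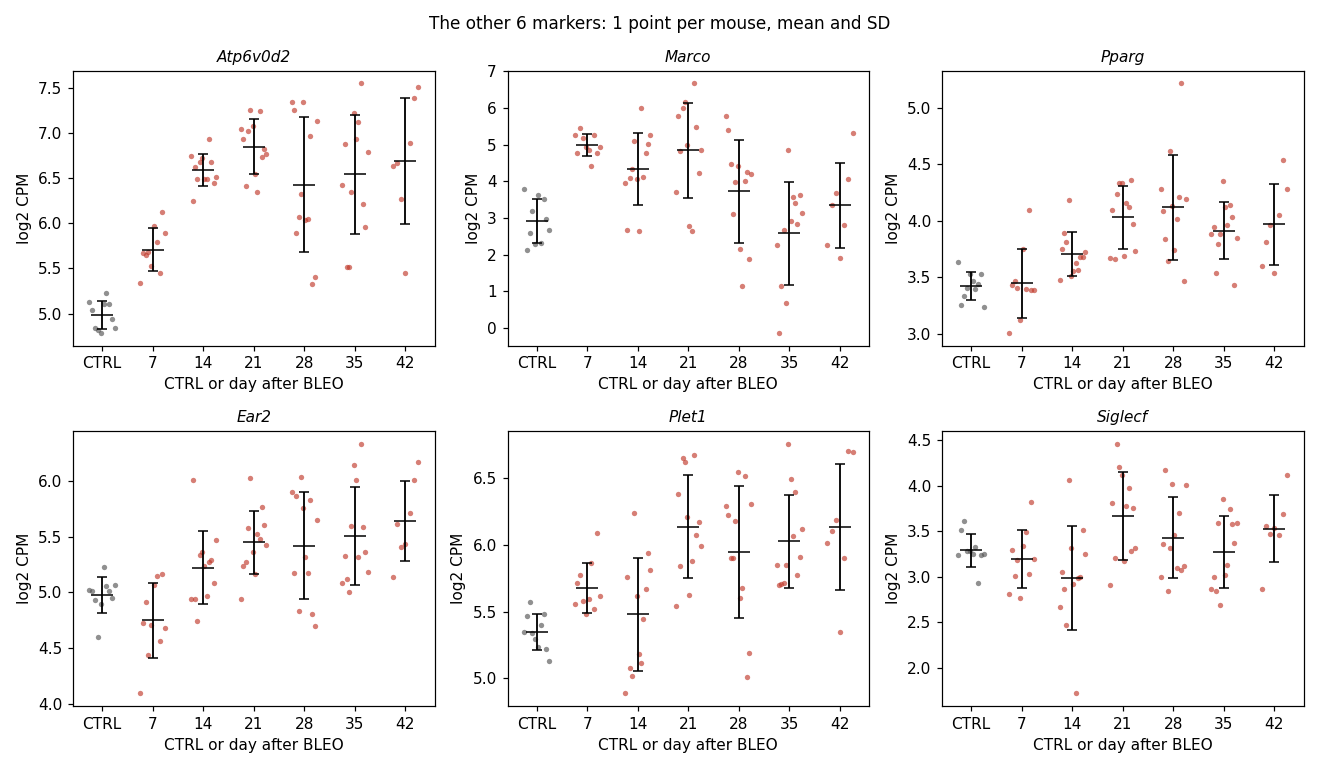
Levels of *Atp6v0d2*, *Marco*, *Pparg*, *Ear2*, *Plet1* and *Siglecf* in each mouse on the log2 CPM scale (vertical axis) for CTRL (grey) and days 7 to 42 after BLEO (red). Bars show the mean and the SD between mice. The 65 BLEO-IPF mice all lie above CTRL for *Atp6v0d2*, and the spread of *Marco* widens from day 14.

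In each mouse, the share of *Ear1* in the counts of *Ear1* and *Ear2* gave the contrast of the pair free of scaling. *Ear1* made up 28.1% ± 4.00 (SD, n = 10) in CTRL (23.5% to 34.3%), 17.6% ± 4.07 on day 7, 5.52% ± 2.71 on day 14 (1.28% to 11.2%) and 9.81% ± 3.13 on day 21. The 12 mice on day 14 and the 12 on day 21 all lay below CTRL. For days 28 and 35 the share was 16.1% ± 7.82 and 17.4% ± 6.26, and for day 42 18.3% ± 6.50 (n = 7, 12.7% to 31.3%). By a two-sided permutation test of the means, exact for day 42, the adjusted p over 6 comparisons was 6e-05 for days 14 and 21, where the resamples can give no smaller raw p. It was 0.00024, 0.000528, 0.00039 and 0.00298 (permutation test) for days 7, 28, 35 and 42. The share was thus below that of CTRL also on day 42, when the level of *Ear1* itself no longer differed by the test. On that day the log2FC against CTRL was -0.13 for *Ear1* and 0.70 for *Ear2*, so the lower share went with higher *Ear2*. Whether reads that match both genes were counted is not given in the sources used here, so the share is uncertain to that extent.

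**Figure D3:**
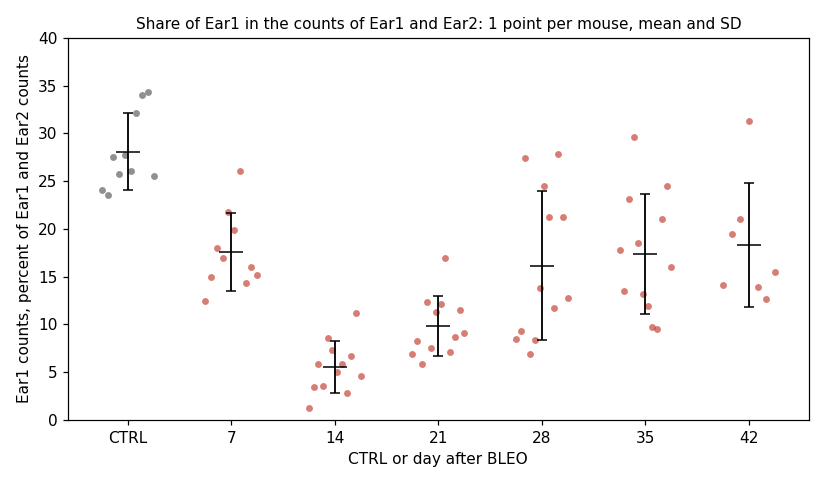
Counts of *Ear1* as a percent of the counts of *Ear1* and *Ear2* (vertical axis) in each mouse of CTRL (grey) and of each day after BLEO (red), with the mean and the SD between mice. CTRL mice lie between 23.5% and 34.3%, and mice on day 14 between 1.28% and 11.2%.

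Over the time course, the number of markers below CTRL was 3 of 10 on day 7 (*Fabp1*, *Ear1*, *Krt79*), 4 on days 14 and 21 (with *Cidec*) and 2 on days 28, 35 and 42 (*Fabp1*, *Krt79*). Among all genes tested, 21.0%, 29.9%, 25.8%, 19.2%, 13.1% and 11.0% were lower on the 6 days in this order. The number of markers above CTRL was 2, 3, 6, 5, 4 and 4 on the same days, and among all genes 24.8%, 32.4%, 28.3%, 24.1%, 16.9% and 13.7% were higher. On day 14, for instance, 4 lower and 3 higher markers of 10 stood near these shares. The median log2FC of the 10 markers was -0.02 on day 14 and 0.43 on day 42 (0.01 over all genes on both days), between extremes of -3.93 and 1.63 on day 14. Without the 2 libraries with adipocyte genes, 4 markers were lower on day 7 and 3 on each of days 28, 35 and 42.

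**Figure D4:**
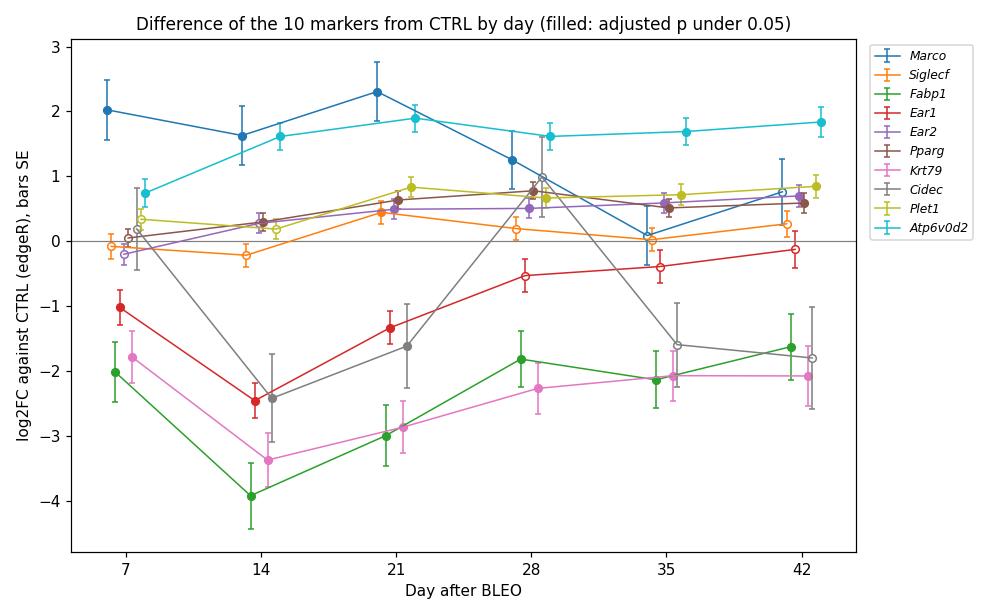
Log2FC of the 10 markers against CTRL (vertical axis, bars show the SE of the edgeR fit) by day after BLEO, with filled points where the adjusted p was under 0.05. *Fabp1* and *Krt79* are lowest on day 14 (-3.93 and -3.38), and *Atp6v0d2* stays between 0.74 and 1.90. The rise of *Cidec* to 0.99 on day 28 rests on 1 library and turns to -1.48 without the 2 libraries with adipocyte genes.

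Between consecutive groups, 4 markers were lower on day 14 than on day 7 (*Fabp1*, *Ear1*, *Krt79*, *Cidec*) against 7.55% of all genes, and 2 were higher (*Ear2*, *Atp6v0d2*) against 9.48%. On day 21 compared to day 14, 3 were higher (*Ear1*, *Plet1*, *Siglecf*) against 0.45% of all genes. In the fit of only these 2 groups, 0 of 14896 genes passed in either direction, so these 3 calls depend on the setting. The single calls on day 28 compared to day 21 (higher, 0.413% of all genes) and on day 35 compared to day 28 (lower, 0.462% of all genes) were both *Cidec* and rested on the library described above. Between days 35 and 42, 0 markers passed the test in edgeR and 0 in DESeq2, with 0 at an unadjusted p under 0.05. Over all genes, 0 passed between these days in edgeR and 0 in DESeq2 as well. On day 42 compared to day 14, 6 markers were higher (*Siglecf*, *Fabp1*, *Ear1*, *Ear2*, *Krt79*, *Plet1*) against 15.2% of all genes, and 0 were lower by edgeR and by DESeq2, with 0 at an unadjusted p under 0.05, against 18.8% of all genes.

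In the order of the 7 group means of log2 CPM, CTRL was highest for *Fabp1*, *Krt79*, *Ear1* and *Cidec*, with day 14 lowest and day 21 next, and CTRL was lowest for *Atp6v0d2*, *Pparg* and *Plet1*. *Marco* was lowest on day 35 and *Ear2* on day 7, each with CTRL next, and *Siglecf* was lowest on day 14 with CTRL in the middle. Neighbours in this order differed by more than the larger of their SDs in 4 places, between CTRL and the next group for *Fabp1*, *Krt79* and *Atp6v0d2* and between days 14 and 21 for *Ear1*. All other neighbours lay within that spread.

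Within a day, mice with more *Krt79* tended to have more *Fabp1* and *Ear1*. The pairs of markers were picked with their values known, and 16 relations were computed over the 12 mice of days 14, 21, 28 and 35, with permutation p-values adjusted over the 16. On day 28, *Krt79* and *Fabp1* had a Pearson r of 0.94 (adjusted p = 0.00016, the smallest the resamples can give) and a Spearman rho of 0.92 (adjusted p = 0.00096), and r was 0.94 without the 2 mice farthest from the median of *Krt79*. *Krt79* and *Ear1* had r = 0.91 (adjusted p = 0.00048) and rho = 0.91 (adjusted p = 0.00096) on that day, and r = 0.94 without the 2 farthest mice. On the other 3 days r was 0.63 to 0.77 for *Fabp1*, where it passed on days 14 and 21 (adjusted p = 0.0268 and 0.0164, permutation test), and 0.48 to 0.72 for *Ear1*, where it passed on day 21 (adjusted p = 0.0268, permutation test). On days 14, 21 and 35 the Spearman coefficient was 0.84, 0.62 and 0.61 for *Fabp1* (adjusted p = 0.0072, 0.0590 and 0.0590) and 0.78, 0.57 and 0.69 for *Ear1* (adjusted p = 0.0181, 0.0777 and 0.0346, permutation test). The 6 mice without *Fabp1* counts on day 14 are tied in these values.

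*Atp6v0d2* did not follow them. Its r with *Krt79* was 0.18, -0.16, -0.53 and -0.70 for days 14, 21, 28 and 35, the last with rho = -0.67 (adjusted p = 0.0327 for r and 0.0410 for rho, permutation test) and r = -0.56 without the 2 farthest mice. On day 28 rho was -0.73 (adjusted p = 0.0318, permutation test), but r did not pass (adjusted p = 0.126). For *Ear1* and *Ear2*, r was 0.41, 0.58, 0.28 and 0.09 on days 14, 21, 28 and 35, and no r passed the threshold (lowest adjusted p = 0.0823, permutation test), while rho passed on day 21 (0.71, adjusted p = 0.0318), when r was 0.30 without the 2 farthest mice.

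**Figure D5:**
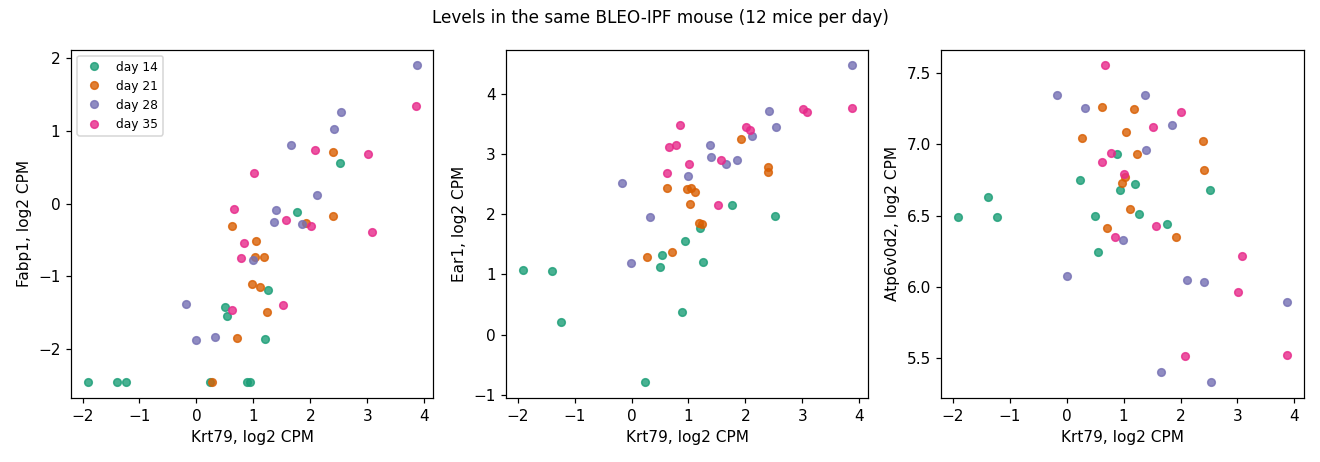
Log2 CPM of *Fabp1* (left), *Ear1* (middle) and *Atp6v0d2* (right) against *Krt79* (horizontal axis), with 1 point per BLEO-IPF mouse and 12 mice on each of days 14, 21, 28 and 35 (colors). On day 28 (purple) points rise together for *Fabp1* and *Ear1* (r of 0.94 and 0.91), and for *Atp6v0d2* they do not (r of -0.53).

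The genes upstream and downstream of PPAR-gamma were measured in the same libraries. Of 10 ligands and receptors of GM-CSF, M-CSF and TGF-beta signalling, 9 were higher on day 14 and 1 lower, led by the GM-CSF receptor chains *Csf2rb2*, *Csf2rb* and *Csf2ra* (log2FC 2.17, 1.57 and 1.31), and 6 were higher on day 42. The ligand *Csf2*, which encodes GM-CSF, was the one that was lower on day 14 (log2FC -0.86), from a range of 1.33 to 3.06 CPM in CTRL to 0.252 to 1.76 CPM. Of 6 transcription factors, 3 were higher and 2 lower on day 14, against 32.4% and 29.9% of all genes. The myeloid factor *Spi1* (PU.1) rose by 1.09 and *Bhlhe40* by 0.78, whereas *Bhlhe41*, which with *Bhlhe40* supports self-renewal of alveolar macrophages, fell by 0.83 on the log2 scale. Of 7 PPAR-gamma targets in lipid handling, 4 were higher and 1, the fatty acid transporter *Cd36*, lower on day 14 (log2FC -0.50), with the lipoprotein lipase *Lpl* (1.77), *Angptl4* (1.26) and the lipid droplet protein *Plin2* (0.78) changed most, and on day 42 4 were higher. The shares of all genes on day 14 were those given for the transcription factors, and on day 42 13.7% of all genes were higher.

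Genes of other cells were followed on the same days. Those of monocytes and monocyte-derived macrophages summed to 759 to 983 CPM in CTRL, 2917 to 14266 CPM on day 14 and 1266 to 5399 CPM on day 42. Of 13 tested, 12 were higher on day 14, led by *Spp1* (log2FC 5.62), *Mmp12* (5.09) and *Arg1* (4.57), and 11 on day 42. These ranges did not overlap CTRL on either day. Of 5 neutrophil genes 3 were higher on day 14 (*Mmp8* by 2.88, *Retnlg* by 1.87 and *S100a8* by 0.77 on the log2 scale), and of 5 T cell genes 1 was lower (*Cd8a*, log2FC -0.69). All 4 B cell genes were lower on day 14, led by *Ms4a1* (log2FC -1.40). Among all genes, 32.4% were higher and 29.9% lower on day 14, and 13.7% were higher on day 42. The T cell count was not above the share of lower genes. The part of these cells in the marker values was not tested.

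*Krt79* is a keratin and *Fabp1* a fatty acid-binding protein, so genes listed for skin or squamous epithelium, liver and intestine were measured in the same libraries. Which cells or tissue their RNA came from was not tested. Of 4 skin or squamous genes tested, 1 was higher on day 14 and 3 on day 35, against 32.4% and 16.9% of all genes. *Krt17* was at 0 in all CTRL libraries and ranged from 0.0796 to 1.53 CPM on day 14. *Krt5* reached 15.9 CPM on day 35, compared with at most 0.0955 CPM in CTRL. Summed, the skin or squamous genes had a median of 3.62 CPM in CTRL, 11.7 CPM on day 35 and 9.75 CPM on day 42. The intestinal gene *Fabp2* had at most 0.323 CPM in any mouse. *Alb*, the liver gene, reached 18.3 CPM in CTRL replicate 8 and 21.7 CPM in replicate 12 of day 35, against 0.557 to 2.97 CPM in the other CTRL mice, 0.504 to 1.71 CPM on day 14 and at most 2.97 CPM in any other mouse. *Fabp1* was within the range of the other mice of its group in both of these libraries (3.44 and 1.16 CPM). The part of cells that express these genes in the values of *Krt79* and *Fabp1* was not tested.

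By the shape of its 7 group means of log2 CPM, centred on their own mean, the markers were compared with 13789 other genes. The gene nearest to *Fabp1*, *Krt79* and *Cidec* was the same, the neutral amino acid transporter *Slc7a10*, with root mean square differences of 0.31, 0.25 and 0.29 on the log2 scale. *Atp6v0d2* was nearest to *Olr1*, the oxidized LDL receptor and another alveolar macrophage gene (0.11), and *Plet1* to the endocytic receptor *Ly75* (0.04). For *Ear1*, *Ear2*, *Pparg* and *Siglecf* the nearest genes were *Gm33248* (0.19), *Cib2* (0.05), *Parm1* (0.06) and *Plcb2* (0.09). These are descriptions over 7 groups, and small differences are easier to reach for markers that varied little.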

How the data were processed

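The authors aligned single-end 75-base reads of stranded libraries with STAR 2.7.0f to GRCm38 (Ensembl 96) and deposited raw counts per gene. The counting program and its handling of strand and multiply mapped reads are not given in the sources used here. All 75 columns were matched to mice by the library names in the sample descriptions. From the counts, edgeR 4.0.16 (R 4.3.3, TMM, filterByExpr, quasi-likelihood F test) was fitted to all mice with 1 mean per group, and p-values were adjusted by Benjamini-Hochberg over 16221 genes at a threshold of 0.05. The filter needed about 0.937 CPM in 7 mice, which each member reached without CTRL, *Fabp1* in 16 of 65 BLEO-IPF mice. CPM used TMM-scaled library sizes, and log2 CPM a prior count of 2. Intervals are the log2FC ± 1.96 SE. The fit was run on simulated counts in which 200 of 15591 genes were changed on day 14, all genes with the same spread between mice. It recovered 191 of them with 9 false calls. The data hold more called genes and a spread that varies by gene, so this run does not show how the fit behaves there. Groups came from the labels, and the p-values measure the spread between mice.

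Named were all 10 members, of each list up to 3 genes with the largest absolute log2FC on day 14 among those called, and the gene nearest to each member in profile (clone names left out; that of *Marco* is not reported here). Values named beyond this rule (*Car4*, *Kcnip4*, *Ear10*, *Csf2*, *Cd36*, *Adipoq*, *Retn*, *Cfd*, *Lep*, *Epx*, *Krt5*, *Fabp2*) were chosen after they were seen. Members, lists and tests were chosen with earlier results of these data known. Alternatives were DESeq2 1.42.0, other scalings and filters, fits restricted to the compared groups, the replicate block, 7 mice per group, a log2FC of at least 0.5 and leaving out libraries with adipocyte or liver genes. Overlapping genes held at most 0.262% of a member's counts.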

Additional observations from a re-analysis of the deposited data

Results flagged for a closer look

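In the groups of 7 or 10 mice, 30 sets of values were examined for a mouse far from the rest, of which chance alone would give about 1 in 20. *Cidec* on day 7 had a highest mouse at 89.0 CPM and *Fabp1* on day 7 a lowest mouse at 0.0833 CPM (1 count). Both are replicate 8, the library with adipocyte genes, where *Krt79* was also lowest of its group (1.33 CPM). *Ear2* in CTRL had a lowest mouse at 24.1 CPM.

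For 6 markers the difference from CTRL itself changed between day 14 and day 42, since the 2 days were compared directly in the same edgeR fit. The log2FC of day 42 against day 14 was 2.33 for *Ear1*, 2.30 for *Fabp1*, 1.30 for *Krt79*, 0.66 for *Plet1*, 0.48 for *Siglecf* and 0.42 for *Ear2*.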

How the results depend on the processing

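Of 664 recomputed log2FC values, 614 kept their direction and side of the threshold, 23 lost and 12 gained the call and 15 changed direction. The setting with an absolute log2FC of at least 0.5 was not among these values, since it changes no log2FC. Of 264 recomputed counts of markers, 234 stayed within 1.5 times the main count.

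With at least 10 counts in every library, *Marco*, *Fabp1*, *Ear1*, *Krt79* and *Cidec* were not tested, so 0 markers were lower on any day or on day 14 than on day 7, 1 was higher on day 7 and 1 on day 14, 3 were higher on day 42 than on day 14, and the *Cidec* calls between days 21, 28 and 35 were absent (0 each). Those 2 calls also went to 0 under DESeq2, in fits of only the groups compared, with the replicate block, with replicates 1 to 7 and without the libraries with adipocyte genes. With replicates 1 to 7 of every group, 1 marker was higher on day 14, 2 were lower and 1 higher on day 14 than on day 7, 0 were higher on day 21 than on day 14 and 3 were higher on day 42 than on day 14. In fits of only the groups compared, the last 2 counts were 0 and 3. With an absolute log2FC of at least 0.5, 1 marker was higher on day 14 than on day 7. Apart from the fewer genes or mice that some of these settings hold, the cause of these shifts was not tested.

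*Cidec* on day 7 turned to -1.33 (DESeq2), -0.55 (replicate block), -1.32 (replicates 1 to 7) and -1.30 (without the adipocyte libraries), and on day 28 to -1.49, -0.70, -1.92 and -1.48. Values near 0 also changed sign without a call. *Pparg* on day 7 was -0.044 with replicates 1 to 7 and -0.039 without the adipocyte libraries, *Marco* on day 35 was -0.088 and *Ear1* on day 42 was 0.0032 with replicates 1 to 7, and *Siglecf* on day 35 was -0.026 (replicate block), -0.18 (replicates 1 to 7) and -0.041 (without the 2 libraries with *Alb*). The call of *Pparg* on day 14 was lost in 7 of the settings. Calls of day 42 against day 14 near the threshold were lost in 5 settings for *Siglecf*, 2 for *Ear2* and 2 for *Krt79*. These numbers leave out the setting with an absolute log2FC of at least 0.5. The calls of *Pparg* (log2FC 0.30), *Siglecf* (0.48) and *Ear2* (0.42) were lost there too.

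The replicate numbers did not pair the mice (median r of deviations 0.006 for same-numbered mice). With the replicate block, 3 markers were lower on each of days 28 and 35 instead of 2, with *Ear1* on day 28 at -0.61. Leaving out each mouse in turn was not part of the design, since groups held 7 to 12 mice. Depth limits *Fabp1* most.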
